A study of Mus musculus with 8 samples.

Results

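The genes of the AP-1 family were examined as loci at which delivered reprogramming factors gave CUT&Tag peaks in fibroblasts. The family was taken as 8 listed genes, Fos, Fosb, Fosl1, Fosl2, Jun, Junb, Jund and Atf3, of 21884 protein-coding genes in the mouse annotation (GENCODE M21, mm10). For each gene, the peaks whose summit lay in the gene body or within 50 kb of the first start site were collected. All 8 genes were found in the annotation and each had such a peak in at least 7 of the 8 libraries. Such peaks are common, since the median protein-coding gene had from 2 summits (native Sox2) to 8 (native Nr5a2) in the same window. The 8 windows did not overlap and held 495 summits of the 661009 in all lists.

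The libraries came from mouse embryonic fibroblasts at day 3 of reprogramming and were made with an antibody against Flag, the tag on the delivered factor. The profiled factors were Nanog, Oct4, Sox2 and Nr5a2, each once as the native protein (native Nanog, native Oct4, native Sox2, native Nr5a2) and once as a fusion with BiD, a BRG1-interacting stretch of the BAF subunit SS18 placed before the factor (NanogBiD, Oct4BiD, Sox2BiD, Nr5a2BiD). Each form is 1 library with no replicate, so no difference within a factor could be tested and every interval covers counting error alone. Which further factors the cells received is not given in the labels, and no control library is named, so factor binding and the background that open chromatin gives in this assay cannot be told apart. The lists hold between 54794 (native Oct4) and 120594 (Sox2BiD) peaks. Heights are tags piled up at a summit and are not scaled to depth, and the peak lists do not give the number of reads. In the study's reporting summary, native Sox2 had the most read pairs of these 8 libraries and Oct4BiD the fewest. Peak lists carry no expression values, so the fibroblast identity of the cells was not checked.

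AP-1 is a group of dimers made of basic leucine zipper proteins of the Fos, Jun and related Atf families that bind the sequence TGACTCA. Fos and Jun are induced within minutes by serum and stress, whereas Jund is present in resting cells, and the FOS proteins need a JUN partner to bind DNA. In fibroblasts AP-1 occupies many of the enhancers that keep the somatic program active, and in reprogramming to pluripotency JUN is known as a barrier.

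The sequences under the peaks that the results turn on are given first, each read 5′ to 3′ on the strand of the gene from mm10, with 50 bases on either side of a summit unless stated. In the first group the capitals mark the site of a delivered factor, which is ATGCAAAT for the octamer bound by Oct4 and CCAAGGCCA or TCAAGGCCA for 2 of the 4 spellings of the NR5A site searched. The Jund sequence lies at chr8:70698827-70698856, upstream of the GENCODE start and inside the first exon of the longer RefSeq model, so 30 bases are shown. The Fosl2 sequence is chr5:32118214-32118314, the Fos sequence chr12:85485853-85485953 and the Atf3 sequence chr1:191196791-191196891.
Jund own start, octamer: cccgcccctttATGCAAATcaacgacgtca
Fosl2 17.5 kb upstream, octamer: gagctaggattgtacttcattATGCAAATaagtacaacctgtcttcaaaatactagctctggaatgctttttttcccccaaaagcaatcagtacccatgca
Fos 12.3 kb downstream, NR5A: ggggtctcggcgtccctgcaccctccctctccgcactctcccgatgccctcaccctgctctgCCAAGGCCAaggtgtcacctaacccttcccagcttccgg
Atf3 intron 21.2 kb downstream, NR5A: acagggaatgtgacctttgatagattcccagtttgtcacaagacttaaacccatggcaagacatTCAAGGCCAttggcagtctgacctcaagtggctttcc

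In the next group the capitals mark an AP-1 site, TGACTCA, at AP-1 genes themselves. These are chr1:191216274-191216374 and chr1:191189994-191190094 in introns of Atf3, and chr8:84985740-84985840 between Junb and its neighbour Hook2.
Atf3 1.66 kb downstream of the first start: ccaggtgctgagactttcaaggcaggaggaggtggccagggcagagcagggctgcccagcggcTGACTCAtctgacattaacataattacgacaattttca
Atf3 28.0 kb downstream: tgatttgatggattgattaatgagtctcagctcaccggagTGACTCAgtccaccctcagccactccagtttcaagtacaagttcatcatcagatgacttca
Junb 7.08 kb upstream: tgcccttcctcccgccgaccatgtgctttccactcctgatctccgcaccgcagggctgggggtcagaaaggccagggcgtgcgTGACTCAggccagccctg

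The last group holds the Jun promoter (RefSeq, GRCm38.p6, chr4:95052173-95052472, minus strand), which runs from 250 bases before to 50 bases after the start, and the most recurrent region upstream of Fos (chr12:85455344-85455444). The capitals in the Jun promoter mark TGACATCA, the variant AP-1 site for which this promoter is known. The Fos sequence held none of the motifs searched.
Jun promoter: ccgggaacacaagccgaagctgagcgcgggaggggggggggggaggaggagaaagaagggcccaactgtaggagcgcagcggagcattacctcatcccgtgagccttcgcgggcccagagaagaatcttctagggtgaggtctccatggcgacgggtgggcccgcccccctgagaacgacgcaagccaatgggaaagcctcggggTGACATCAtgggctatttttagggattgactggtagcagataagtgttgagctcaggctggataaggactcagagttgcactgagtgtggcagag
Fos 18.5 kb upstream: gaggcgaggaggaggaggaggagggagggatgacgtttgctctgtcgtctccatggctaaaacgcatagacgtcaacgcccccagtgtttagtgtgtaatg

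The 8 genes differed in how many peaks surrounded them. Atf3 had 78 summits over the 8 libraries and Fos had 77, against 51 at Jund and 52 at Fosl2. Atf3, a stress-induced member that can repress as well as activate, had between 6 summits (native Nanog and native Sox2) and 14 (native Nr5a2). Fos had 8 summits in native Nanog, NanogBiD and native Oct4, 6 in Oct4BiD, 5 in native Sox2, 15 in Sox2BiD, 16 in native Nr5a2 and 11 in Nr5a2BiD. These were the 2 genes whose count stood above the 50th percentile of all protein-coding genes in every library, with percentiles from 56.9 to 94.9 for Fos and from 75.5 to 96.4 for Atf3. Neither window holds the start of another protein-coding gene, and the same is true of Jun (55 summits) and Fosl2 (52 summits). The windows of Fosl1, Junb, Fosb and Jund hold the starts of 10, 9, 6 and 5 other protein-coding genes.

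The lowest counts lay in native Sox2. Fosb, which also makes the long-lived truncated protein known from brain, had 8 summits in native Nanog, 10 in NanogBiD, 2 in native Oct4, 7 in Oct4BiD, none in native Sox2, 11 in Sox2BiD, 15 in native Nr5a2 and 11 in Nr5a2BiD. Fosl1, which encodes FRA-1, had 9, 6, 6 and 7 summits in the Nanog and Oct4 libraries in the same order, none in native Sox2, 9 in Sox2BiD, 11 in native Nr5a2 and 8 in Nr5a2BiD. The closest native Sox2 summit lay 70508 bp from the Fosb start and 63056 bp from the Fosl1 start. The remaining members ranged from 3 to 12 summits (Fosl2), 4 to 10 (Jun), 2 to 13 (Junb) and 3 to 11 (Jund).

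**Figure D1:**
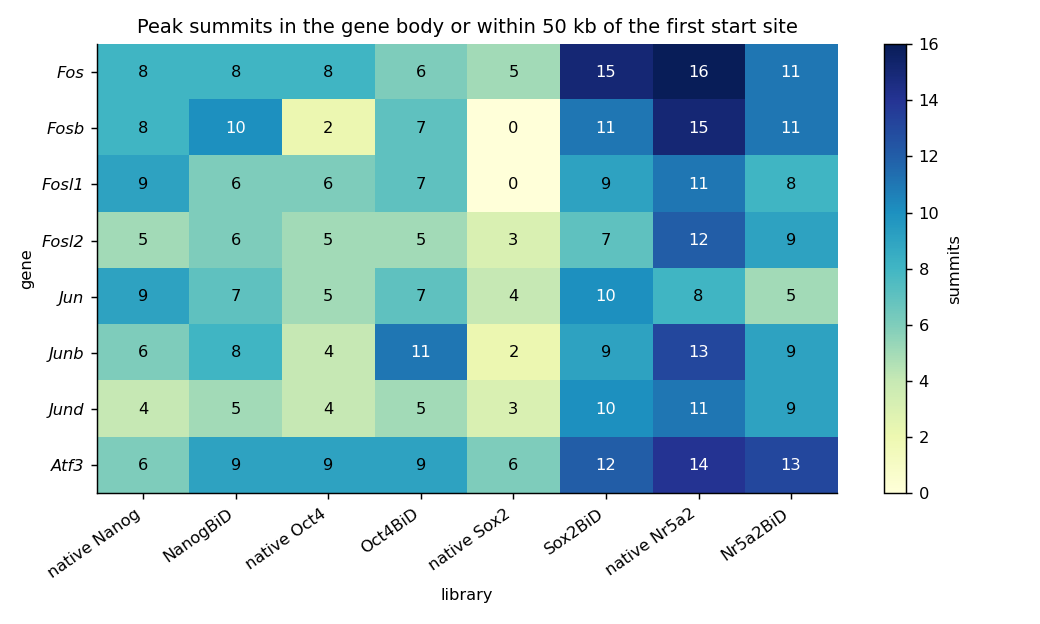
Peak summits per gene (rows) and library (columns), counted in the gene body or within 50 kb of the first start site, with darker cells for more summits. Native Sox2 is the palest column, with 0 at Fosb and Fosl1, and native Nr5a2 reaches 16 at Fos.

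Most summits were not at the start of an AP-1 gene. Of the 495 summits, 54 lay within 2 kb of the first start site of the gene, 19 within 2 kb of another of its annotated starts, 172 within 2 kb of the start of a neighbouring gene, and 250 (50.5%) were distal, more than 2 kb from any annotated start. Distal summits made up 60 of 77 at Fos and 50 of 78 at Atf3. They were 7 of 62 at Junb, where 47 summits fell at starts of neighbours. Among the libraries the distal share ran from 42.1% (Oct4BiD) to 56.6% (Sox2BiD). No such split is given for the windows of other genes, so these shares describe the AP-1 windows alone.

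Peaks at the genes' own starts differed among the members. Jun and Fosl2 had a summit within 2 kb of the first start in all 8 libraries, a state shared by 13.0% of protein-coding genes. Fosb and Jund had one in 7 libraries, Fos and Atf3 in 6, Fosl1 in 3 and Junb in 2. With any annotated start of the gene, Atf3 reached 8 libraries (17.2% of protein-coding genes reach that) and Fos and Junb 7, while Fosl1 stayed at 3.

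Jun, the principal partner of the FOS proteins, had tall promoter peaks throughout. The highest summit within 2 kb of its start was 47 tags in native Nanog, 51 in NanogBiD, 40 in native Oct4, 65 in Oct4BiD, 37 in native Sox2, 51 in Sox2BiD, 57 in native Nr5a2 and 48 in Nr5a2BiD. Each of these stood at or above the 83.8th percentile of summit heights in its own list, with Oct4BiD at the 98.0th. The TGACATCA site lay within 50 bp of the summit in native Nanog, native Oct4 and native Sox2, whose summits were 63, 47 and 65 bp upstream of the start. That site is present in 3.62% of the 32851 RefSeq promoters of the same length.

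Fosl2, which encodes FRA-2, had tall promoter peaks as well. Its promoter summits were 47 tags in native Nanog, 61 in NanogBiD, 36 in native Oct4, 58 in Oct4BiD, 37 in native Sox2, 50 in Sox2BiD, and 76 in both Nr5a2 libraries. The Nr5a2 summits stood at percentiles of 99.2 (native) and 99.4 (BiD) and native Sox2 again at 83.8. An AP-1 site lay within 50 bp of the NanogBiD summit.

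Jund, the member with steady basal expression, had its tallest promoter summit in Oct4BiD. The heights were 29 tags in native Nanog, 35 in NanogBiD, 26 in native Oct4, 52 in Oct4BiD, 19 in native Sox2, 31 in Sox2BiD and 42 in Nr5a2BiD. Native Nr5a2 had none within 2 kb, but its summit 2323 bp upstream fell in the same merged region, which was therefore found in all 8 libraries. The octamer printed above ended 104 bases before the GENCODE start and lay within 50 bp of the summit in Oct4BiD, native Nanog, native Sox2 and Sox2BiD, so it was not tied to the Oct4 libraries. An intact CRE, TGACGTCA, lay within 50 bp of the native Oct4 summit.

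Fos had no own-start peak in native Sox2, whose closest summit was 12356 bp away. Elsewhere its highest summit by an annotated start was 38 tags in native Nanog, 43 in NanogBiD, 17 in native Oct4, 31 in Oct4BiD, 28 in Sox2BiD, 60 in native Nr5a2 and 48 in Nr5a2BiD. The 2 Nr5a2 summits lay 2163 and 2174 bp into the gene, while both Nanog summits lay 1639 bp upstream of it. Those Nr5a2 peaks scored 66.6 (native) and 84.7 (BiD), below the median scores of their lists, 124.87 and 116.81. The 300 bases taken as the RefSeq promoter of Fos held no full AP-1, CRE or CArG match. Partial matches were not counted, and bases farther upstream were not part of that promoter search. The result therefore does not show that the Fos promoter lacks such sites.

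At Junb and Atf3, most libraries had their highest own-start summit away from the first start. JUNB is an immediate-early partner of the FOS proteins. The first Junb start in GENCODE had a summit within 2 kb in Sox2BiD and native Nr5a2, while 7 libraries, all but Nr5a2BiD, had a summit by an annotated start of the gene. Those summits were 24, 38, 23, 39, 15, 33 and 70 tags in native Nanog, NanogBiD, native Oct4, Oct4BiD, native Sox2, Sox2BiD and native Nr5a2. Their peak scores in that order were 56.4, 52.9, 66.5, 84.5, 64.7, 139 and 140.5, where the lowest score of each list is 50. All but the score in native Nr5a2 lay below the median score of their own list. The nearest Nr5a2BiD summit was 7086 bp away, whereas the native Nr5a2 summit stood at the 98.5th percentile of its list.

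At Atf3 the region at 34.5 kb inside the gene (chr1:191182085-191187270), by the start that RefSeq uses, had a peak in all 8 libraries. The highest summit there was 35 tags in native Nanog, 36 in NanogBiD, 26 in native Oct4, 51 in Oct4BiD, 17 in native Sox2, 29 in Sox2BiD, 34 in native Nr5a2 and 24 in Nr5a2BiD. The native Sox2 and Sox2BiD summits lay at positions 191186238 and 191186015, away from the RefSeq start at 191183333. Within 2 kb of an annotated start these libraries had 15 and 27 tags. Those peaks scored 51.6 and 172.2, where the lowest score of each list is 50. The region 1.66 kb into the gene from the first start had a peak in 6 libraries and in neither Sox2 library, and its tallest summit was again in Oct4BiD, at 52 tags against 14 in native Oct4. An AP-1 site lay within 50 bp of both Oct4 summits there.

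Fosb and Fosl1 had the lowest own-start peaks. The Fosb promoter summits ran from 10 tags (native Oct4) to 28 tags (native Nr5a2), and those of Fosl1 were 14 tags in Oct4BiD, 33 in native Nr5a2 and 12 in Nr5a2BiD. The Fosl1 peaks scored 55.4, 280.1 and 51.5 in that order, where the lowest score of each list is 50. Native Oct4 at Fosb stood at a percentile of 3.16 in its list and Nr5a2BiD at Fosl1 at 5.79. The median over all protein-coding genes with a promoter summit lay between percentiles of 38.3 (native Sox2) and 71.7 (native Nr5a2). Fosb stood above its library's median in native Nanog (63.7 against 60.4) and in Oct4BiD (67.3 against 64.9). Fosl1 did so in native Nr5a2 (76.5 against 71.7), and the other promoter summits of both genes stood below.

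**Figure D2:**
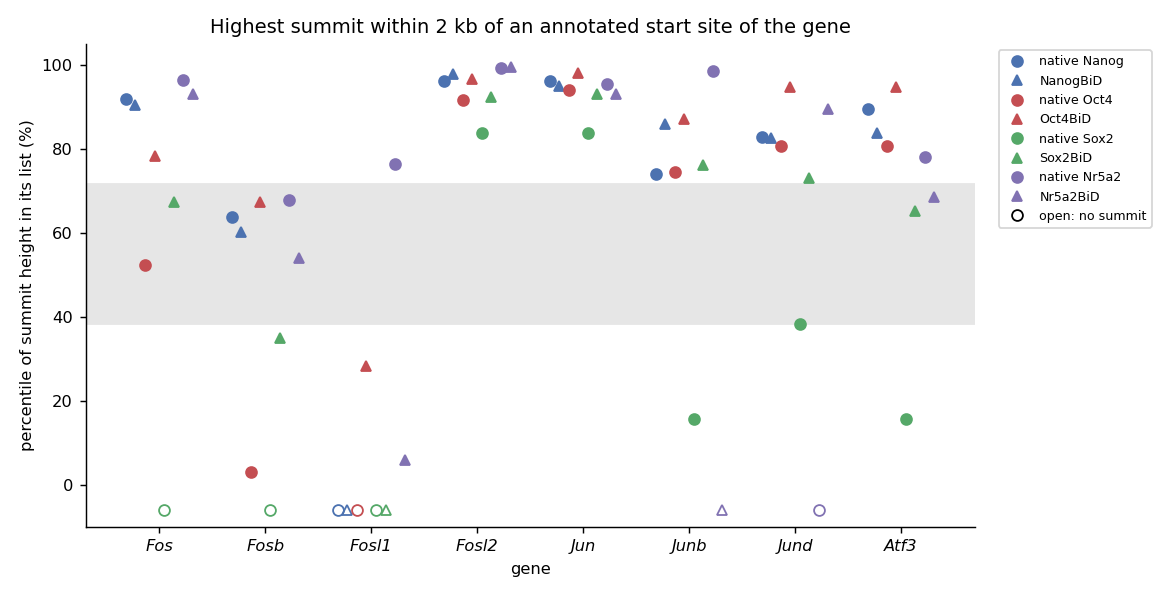
Highest summit within 2 kb of any annotated start of each gene, as its percentile (%) among summit heights of the same library (circles native, triangles BiD, open symbols below 0 where no summit was listed). The grey band spans the 8 libraries' medians over protein-coding genes with a summit at the first start, 38.3 to 71.7. Jun and Fosl2 are at or above 83.8 in every library, and Fosl1 has 5 open symbols.

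Counted by library, first-start peaks were present at 6 of the 8 members in native Nanog (45.8% of all protein-coding genes), 6 in NanogBiD (49.0%), 6 in native Oct4 (33.5%), 7 in Oct4BiD (50.3%), 3 in native Sox2 (18.9%), 6 in Sox2BiD (45.8%), 7 in native Nr5a2 (56.3%) and 6 in Nr5a2BiD (46.8%). With any annotated start the members were 7 in native Nanog (51.2%), 7 in NanogBiD (54.6%), 7 in native Oct4 (39.0%), 8 in Oct4BiD (55.9%), 5 in native Sox2 (25.2%), 7 in Sox2BiD (53.4%), 7 in native Nr5a2 (63.4%) and 7 in Nr5a2BiD (53.9%). At 2 kb and with full lists, the members' share was above the share of all genes in each library, from 8 genes and without a test. The 8 in Oct4BiD counts a Fosl1 peak that scored 55.4. The share of all genes is not given for other settings. At 500 bp the members ran from 3 (native Sox2 and Nr5a2BiD) to 6 (Oct4BiD and Sox2BiD). With the 50000 highest-scoring peaks Sox2BiD had 2. For native Nr5a2 the 7 became 4 when a promoter was taken as 500 bp or 1 kb.

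The 28 genes of a fixed list around AP-1 gave a like picture. Among 15 basic leucine zipper relatives, first-start peaks ran from 6 genes in native Sox2 to 14 in native Nanog, and Atf2, Atf7, Maf and Nfe2l2, the regulator of the oxidative stress response, had one in all 8 libraries. Batf and Batf3, best known from immune cells, had one in 2 libraries each. Of 8 serum-response and immediate-early genes, Elk1 alone had a first-start peak in all 8 libraries, and with any start Srf, Dusp1 and Nr4a1 joined it. Among 5 kinases upstream of AP-1, Mapk8 and Mapk9, which encode the JNK proteins that phosphorylate JUN, had one in all 8. Over their own windows the related genes had a median of 2.5 (native Sox2) to 10 (native Nr5a2) summits, against 3 and 12.5 for the members and 2 and 8 for all protein-coding genes in the same libraries.

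The promoter height pattern over the 8 libraries was compared with every other protein-coding gene by the mean absolute difference of percentiles. Closest to Fosl2 were Rtn4 (1.09 percentile points) and Edem3 (1.23), and closest to Jun were Adam9 and Tm2d2, which lie next to each other on chromosome 8 and had the same values (both 1.5). For Fosb these were Idh3g and Ssr4 (both 2.74, adjacent on chromosome X), for Jund Calm3 (4.06) and BC005537 (5.21), for Fos Eif4ebp3 (5.57) and Mt1 (7.16), and for Atf3 Kank3 (7.36) and Nfat5 (7.51). The likeness is a description over 8 libraries.

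When overlapping peaks of all libraries were merged, the windows held 167 regions. Of these, 61 (36.5%) were found in 1 library and 8 (4.79%) in all 8, against 46.0% and 1.49% of the 306466 regions of the genome. Own-start regions recurred most, with 6 of 11 in 7 or 8 libraries, compared with 9 of 53 at starts of neighbours and 5 of 103 distal regions. The regions of the genome were not split by class, so whether own-start regions recur as often elsewhere was not tested. The 8 regions found throughout were the starts of Fosl2, Jun and Jund, the inner start of Atf3, a pair of distal regions at Fos, and the starts of Pgpep1 and Lsm4 in the Jund window. The merging let peaks with separate summits join, since chaining summits within 100 bp left 2 regions in all 8 libraries and 163 in 1.

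**Figure D3:**
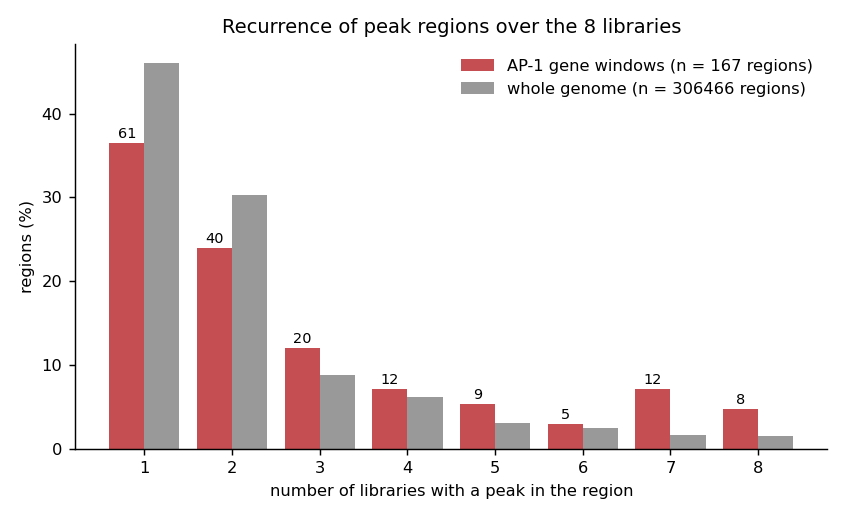
Share of merged regions (%) by the number of libraries with a peak in them, for the windows of the AP-1 genes (red, numbers of regions above the bars) and the whole genome (grey). The bar for 1 library is 36.5% against 46.0%, and that for 8 libraries 4.79% against 1.49%.

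Both distal regions found throughout belonged to Fos, and 4 of the 5 distal regions in 7 or 8 libraries were in its window. The region 18.5 kb upstream (chr12:85454473-85458384, intergenic) had its highest summits at 61 tags in native Nanog, 79 in NanogBiD, 37 in native Oct4, 65 in Oct4BiD, 35 in native Sox2, 49 in Sox2BiD, 64 in native Nr5a2 and 67 in Nr5a2BiD. It was taller than the Fos promoter in each of the 7 libraries that had both. Even native Sox2, with no peak at the Fos start, had it at a percentile of 81.3 in its list.

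The region 12.3 kb downstream (chr12:85484536-85488404, intergenic) had summits of 54, 71, 24, 40, 13, 29, 81 and 55 tags in the same order. It joined separate summits, from position 85485879 in native Oct4 to 85486968 in NanogBiD. The 81 tags of native Nr5a2, at the 99.6th percentile, were the tallest, and the NR5A site printed above lay 12 bases from that summit. The same site lay within 50 bp of the native Oct4 summit. Native Sox2 had the lowest summit, 13 tags.

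Another Fos region, 11.7 kb upstream (chr12:85460668-85463393), was found in 7 libraries and missing in native Sox2. Its summits were 63 tags in native Oct4 and 67 in Oct4BiD, next to 41 in each Nanog library, 29 in Sox2BiD, 64 in native Nr5a2 and 55 in Nr5a2BiD. They too lay apart, from position 85461727 in both Oct4 libraries to 85462764 in Sox2BiD. The last of the 4, 23.8 kb downstream, was tallest in native Nr5a2 (69 tags) and missing in Oct4BiD. Its highest summits ran from position 85496568 in Nr5a2BiD to 85497768 in NanogBiD. A region 27.8 kb upstream was found in 3 libraries, with 40 tags in native Oct4, 78 in Oct4BiD and 27 in native Nr5a2.

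**Figure D4:**
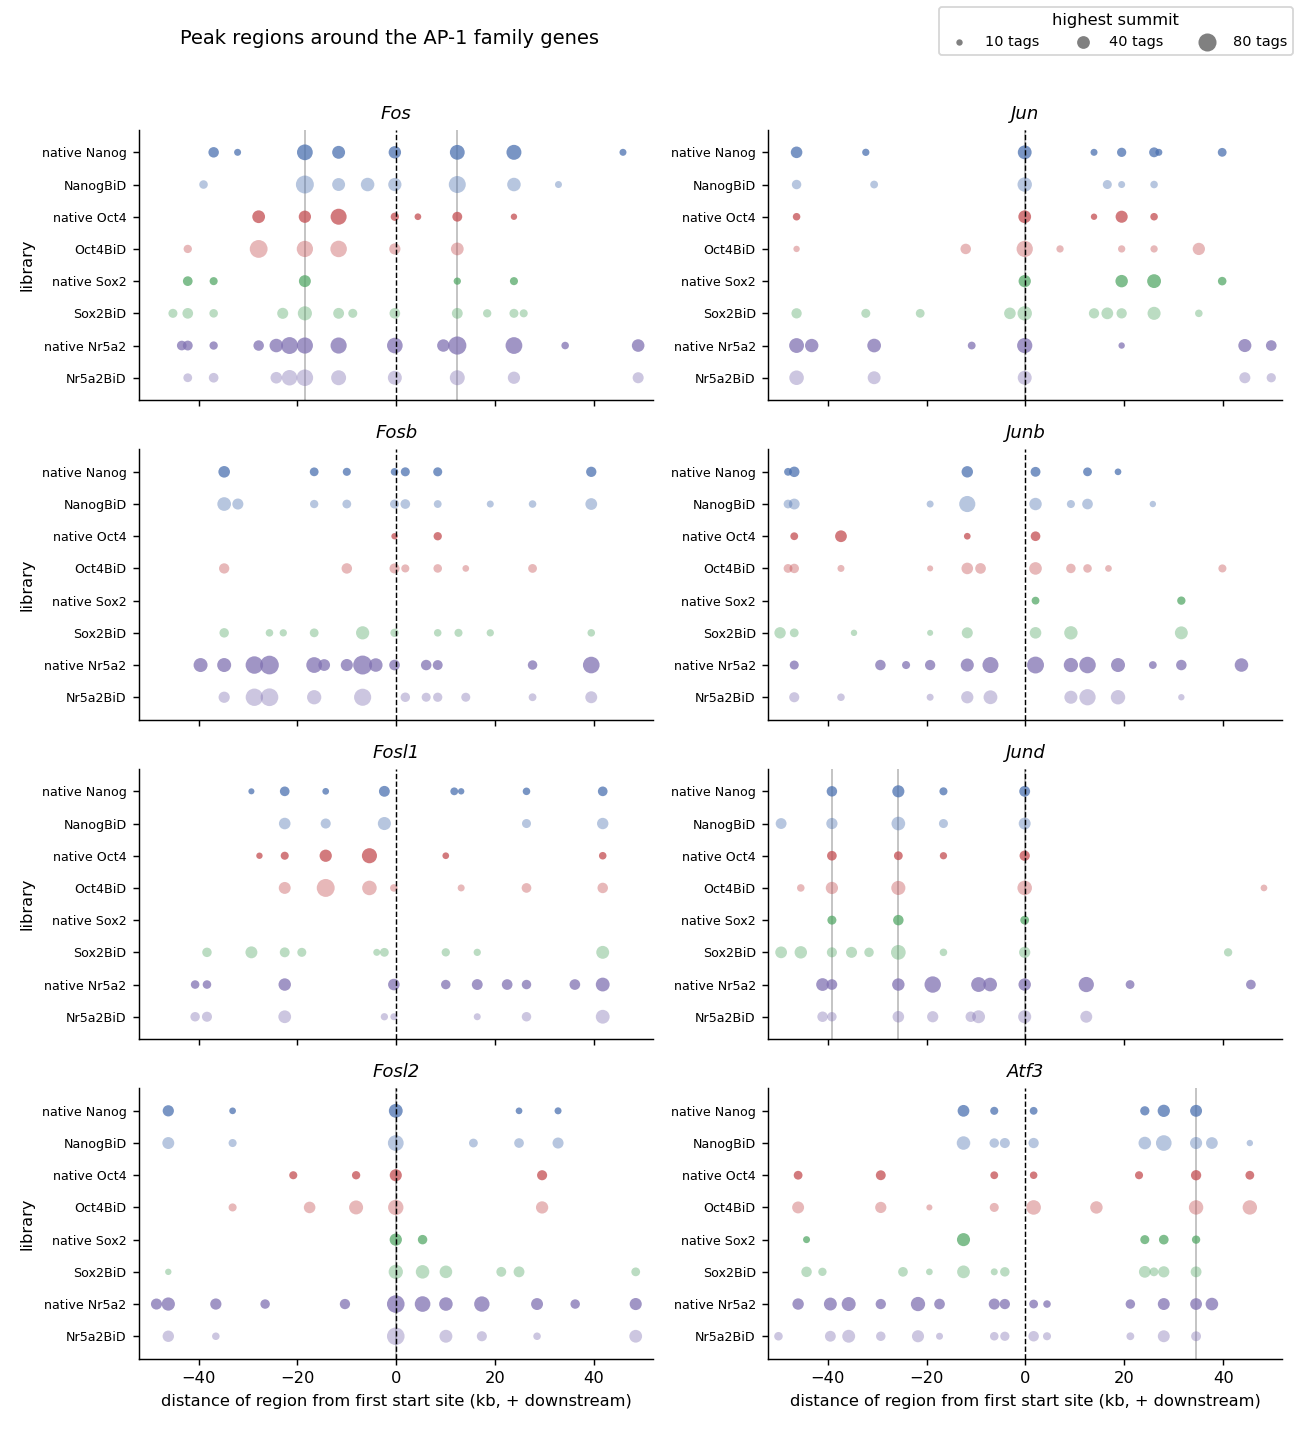
Merged peak regions around each gene, placed by distance from the first start site (kb, positive downstream, dashed line at 0), with 1 row per library, dot area for the highest summit in tags, colour for the factor and paler dots for BiD. Grey lines mark the regions found in all 8 libraries, which include a pair at Fos 18.5 kb upstream and 12.3 kb downstream.

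Distal regions at the other members were shared by fewer libraries. The most recurrent one at Jun, 19.5 kb downstream in an intron of the RNA gene Gm12703, was found in 7 libraries with 36 tags in native Oct4, 38 in native Sox2 and 26 in Sox2BiD, and between 10 and 21 in native Nanog, NanogBiD, Oct4BiD and native Nr5a2. A second Jun region, 26.0 kb downstream, was tallest in the Sox2 libraries, at 47 tags (native) and 42 tags (BiD) against 13 to 24 in the Nanog and Oct4 libraries, and had no peak in either Nr5a2 library. No SOX site, CCATTGTT, was found within 50 bp of its summits.

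In the Atf3 intron 28.0 kb downstream of the first start, 6 libraries had a peak and neither Oct4 library did. The summits were 37 tags in native Nanog, 60 in NanogBiD, 23 in native Sox2, 31 in Sox2BiD and 35 in each Nr5a2 library. The AP-1 site printed above lay within 50 bp of the summit in native Nanog, NanogBiD and native Sox2, and an NR5A site lay by both Nr5a2 summits.

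At Fosl2 the region 46.1 kb upstream was found in 5 libraries (10 to 43 tags), and at Fosb the region 16.6 kb upstream in 5 (17 to 61 tags, tallest in native Nr5a2). The Fosl1 region 14.3 kb upstream was found in both Nanog and both Oct4 libraries, with 79 tags in Oct4BiD, 37 in native Oct4, 25 in NanogBiD and 11 in native Nanog. At Junb the most recurrent distal region was the one 7.08 kb upstream, with 63 tags in native Nr5a2 and 47 in Nr5a2BiD and no peak elsewhere. The Jund region 49.4 kb upstream reached 4 libraries as a merged region, with summits inside the window in NanogBiD (29 tags) and Sox2BiD (34 tags). It was tied with a Jund region 16.6 kb upstream, which had all 4 libraries inside the window (16 tags in native Nanog, 20 in NanogBiD, 13 in native Oct4 and 14 in Sox2BiD) and an AP-1 site within 50 bp of 3 of the summits, in both Nanog libraries and Sox2BiD. The Fosl1 region was tied with one 2.41 kb upstream, found in native Nanog (29 tags), NanogBiD (42), Sox2BiD (19) and Nr5a2BiD (13).

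Regions of exactly 2 libraries mostly joined the native and BiD form of 1 factor, in 28 of 40 cases against 84.3% of such regions in the genome. Of the 28, 23 were Nr5a2 pairs, spread over all 8 members, with 3 Oct4 pairs and 1 each for Nanog and Sox2. Over the genome Nr5a2 pairs were also the most numerous, at 30809 of 78130, with 20293 for Sox2, 15425 for Oct4 and 11593 for Nanog. An NR5A site lay by a summit in 1 of the 23, the Atf3 region printed above (22 tags in native Nr5a2 and 15 in Nr5a2BiD). The share was 14.9% of the 30809 Nr5a2 pairs of the genome, and the difference was not tested. The octamer printed for Fosl2 belongs to a peak of Oct4BiD alone, of 33 tags.

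The AP-1 motif itself was sought at these peaks and at all peaks of each list. TGACTCA or its reverse complement TGAGTCA lay within 50 bp of 6 of 55 summits in native Nanog (10.9%, exact 95% interval 4.11 to 22.2), against 10.2% of all summits of the list. In NanogBiD the share was 8.47% (2.81 to 18.7) against 8.65%, in native Oct4 6.98% (1.46 to 19.1) against 4.56%, and in Oct4BiD 10.5% (3.96 to 21.5) against 3.61%. In native Sox2 it was 1 of 23 (4.35%, 0.11 to 21.9) against 8.66%, in Sox2BiD 7.23% (2.7 to 15.1) against 9.01%, in native Nr5a2 6.0% (2.23 to 12.6) against 6.07%, and in Nr5a2BiD 4.0% (0.833 to 11.2) against 7.76%. The share of the whole list lay inside the interval in 7 libraries and below it in Oct4BiD, where 6 of 57 summits had the motif. In Oct4BiD it was inside the interval at the other widths, with 1.76% against 5.26% (1.1 to 14.6) within 25 bp and 6.75% against 10.5% (3.96 to 21.5) within 100 bp. Of the 167 regions, 21 had the motif by a summit, of which 11 were distal, 8 at the start of a neighbouring gene and 2 at the first start of a member (Fosl2 and Atf3).

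The NR5A site, sought in 4 spellings on both strands, lay by 12 of 100 native Nr5a2 summits (12%, 6.36 to 20) and 6 of 75 Nr5a2BiD summits (8.0%, 2.99 to 16.6), next to 11% and 7.89% of all summits in those lists. It was by at most 1 summit in any other library. The octamer lay by 3 of 57 Oct4BiD summits (5.26%, 1.1 to 14.6) against 9.72% of the list, and by none of 43 in native Oct4 (upper limit 8.22%) against 4.17% of the list. The NANOG site GCCATTA was by none of the 55 and 59 summits of the Nanog libraries (upper limits 6.49% and 6.06%), against 1.7% and 2.55% of their lists, so the counts do not separate these summits from the rest.

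The comparison of BiD with native form asked whether the fusion gave more or fewer peaks at the AP-1 genes. For Sox2 the summed summits were 83 with BiD and 23 without, a log2 ratio of 1.85 (exact 95% interval 1.17 to 2.59), and all 8 members had more summits with BiD (83.6% of all protein-coding genes did). The whole Sox2 lists differed by 1.05 and the windows of all protein-coding genes by 1.30 on the same scale. With the 50000 highest-scoring peaks of each list, 18 summits were left in each and the ratio was 0.00, so the difference was not present between lists of equal length.

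For Nr5a2 the sign was opposite. The windows held 100 summits in native Nr5a2 and 75 in Nr5a2BiD, a log2 ratio of -0.42 (-0.87 to 0.03), and all 8 members had fewer with BiD, as did 74.0% of protein-coding genes. The lists as a whole differed by -0.50, and with the 50000 top-scoring peaks of each list the ratio was -0.19, from 57 and 50 summits. For Oct4 the counts were 43 and 57 (0.41, -0.19 to 1.01, whole lists 0.78), with more summits at 5 members, fewer at 1 and equal numbers at 2, while 74.6% of protein-coding genes had more and 5.67% fewer. With the 50000 top-scoring peaks of each list the Oct4 ratio changed sign to -0.16. For Nanog they were 55 and 59 (0.10, -0.45 to 0.66, whole lists 0.04). The Oct4, Nanog and Nr5a2 intervals include 0, and each interval but that of Sox2 includes the ratio of the whole lists. Every interval, that of Sox2 too, includes the ratio over the windows of all protein-coding genes. Those ratios were 1.30 for Sox2, 0.86 for Oct4, 0.17 for Nanog and -0.55 for Nr5a2.

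**Figure D5:**
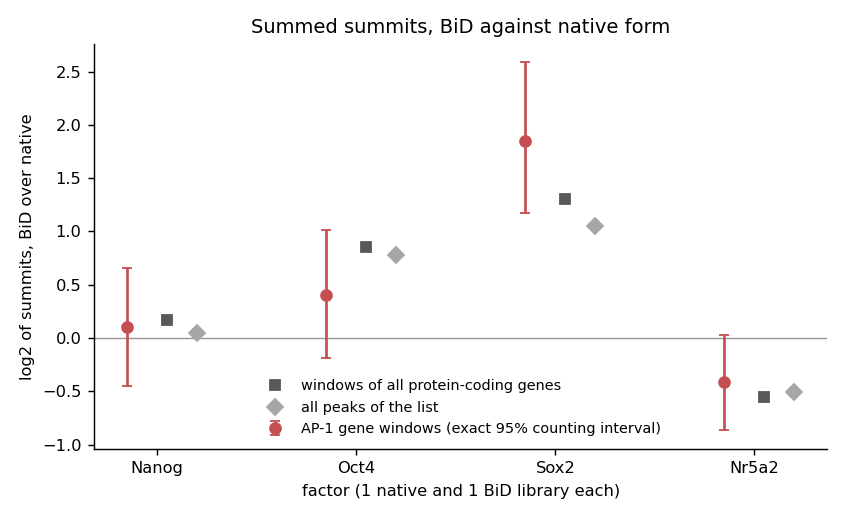
Log2 ratio of summed summits, BiD over native, for the 8 AP-1 gene windows (red, bars are exact 95% counting intervals), the windows of all protein-coding genes (squares) and the whole lists (diamonds), by factor with 1 library per form. Sox2 is at 1.85 and Nr5a2 at -0.42 in the AP-1 windows.

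Scaled to list length, the windows held 9.84 summits per 10000 peaks in Nr5a2BiD and 9.26 in native Nr5a2, against 7.49 and 7.79 in native Nanog and NanogBiD, 7.85 and 6.07 in native Oct4 and Oct4BiD, and 3.95 and 6.88 in native Sox2 and Sox2BiD. The mean member had between 1.22 times (Oct4BiD) and 1.72 times (Nr5a2BiD) the summits of the mean protein-coding gene in 7 libraries, and 0.993 times in native Sox2.

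Region by region, both forms of Nr5a2 shared 68 of the 103 regions in which either had a peak (66.0%, exact 95% interval 56 to 75.1), with 30 in the native form alone and 5 with BiD alone. The Nanog forms shared 41 of 68 (60.3%, 47.7 to 72) and the Oct4 forms 31 of 64 (48.4%, 35.8 to 61.3). The Sox2 forms shared 20 of 77 (26.0%, 16.6 to 37.2), with 56 in Sox2BiD alone and 1 in native Sox2 alone. The corresponding shares over the genome were 55.5%, 55.8%, 37.1% and 39.3%. In merged regions where both forms had a summit inside the window, the distance between their highest summits was taken. Its median was 30 bp for Nr5a2, 44 bp for Sox2, 55 bp for Oct4 and 73 bp for Nanog. Summits lay within 100 bp in 49 of 65, 16 of 20, 20 of 31 and 24 of 41 regions. The largest distances were 2165, 223, 1555 and 2951 bp in the same order.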

How the data were processed

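CUT&Tag reads had been trimmed (Trim Galore 0.6.4), mapped to mm10 (Bowtie2 2.4.5), filtered (SAMtools 1.16.1) and called into peaks with MACS 1.4.2 by the authors, per the submitters' processing notes and the study's methods, which also merge replicates before calling. In the deposited lists a score is the MACS p-value on a −log10 scale times a constant, with a minimum of 50, and the deposited signal is the summit height in tags. Neither is scaled to depth. The study reports the experiment as performed once.

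Here, summits were assigned to GENCODE M21 genes on chromosomes 1 to 19, X and Y, leaving 110 peaks on other sequences out. Promoter peaks lay within 2 kb of the first start. Peaks overlapping by 1 base or more were merged into regions. Percentiles rank summit heights within a list. Motifs were AP-1, CRE (TGACGTCA), TGACATCA, octamer (ATGCAAAT), SOX (CCATTGTT), NR5A (TCAAGGTCA, TCAAGGCCA, CCAAGGTCA or CCAAGGCCA), NANOG (GCCATTA) and the CArG box, on both strands. Python 3.11.15 and SciPy 1.17.1 gave exact conditional, binomial (Clopper-Pearson) and Poisson intervals, and the counting code was tested on simulated peaks. All 8 members are named, with the most recurrent distal region of each (ties by the higher mean height percentile), genes starting by regions of all 8 libraries, and the 2 genes nearest in promoter pattern for members with a first-start peak in at least 4 libraries, which leaves out Fosl1 and Junb; the printed motif sequences and further regions were chosen after their values were seen. The members and lists were chosen with earlier results of these data known. Alternatives were window, promoter and motif widths, stricter score and height minimums, equal list lengths and merging by summit.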

Additional observations from a re-analysis of the deposited data

Results flagged for a closer look

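The log2 ratio of summed summits at the AP-1 genes, BiD over native, was -0.42 for Nr5a2, opposite in sign to the 1.85 of Sox2, 0.41 of Oct4 and 0.10 of Nanog. Every member had fewer summits with BiD for Nr5a2 and more for Sox2. The difference between the factors was not tested, since each form is 1 library. The list of Nr5a2BiD is shorter than that of native Nr5a2 (76217 against 108030 peaks). With the 50000 top-scoring peaks of each list the Nr5a2 ratio was -0.19 (57 native and 50 BiD summits), and per 10000 peaks the windows held 9.26 summits in native Nr5a2 and 9.84 in Nr5a2BiD.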

How the results depend on the processing

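Of 82 values recomputed under the alternatives, 68 stayed within the counting interval of the reported value or, for counts, within 1.5 times of it. Those intervals are wide, so an AP-1 motif share of 4.35% in native Sox2 and one of 17.4% within 100 bp count among the 68. When each list was limited to its 50000 top-scoring peaks, the Oct4 ratio changed sign to -0.16, the Sox2 ratio became 0.00, the Nr5a2 ratio was -0.19, and Sox2BiD had 2 members with a promoter peak in place of 6. A promoter of 500 bp left 4 members in native Nr5a2 and 3 in Nr5a2BiD, 1 kb left 4 in native Nr5a2, and any annotated start gave 5 in native Sox2. Regions in all 8 libraries numbered 2 by chained summits, 4 with a score of at least 100 and 3 with the 50000 top-scoring peaks, and regions in 1 library 163 by chained summits and 39 with the 50000 top-scoring peaks. The AP-1 motif share was 2.0% within 25 bp in native Nr5a2 and 12% within 100 bp in Nr5a2BiD. Sox2 stayed between 1.82 and 2.53 and Nr5a2 between -0.58 and -0.35 under the window, score and height settings. The labels give no replicate numbers that pair libraries. Taking native and BiD forms as pairs by factor leaves 4 pairs, which were described and not tested, since a p over genes chosen with results known is not given. No library could be left out, since each group is 1 library. List length limits comparisons of presence between libraries, and a missing peak does not show absence of binding.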
